A study of Mus musculus with 7 samples.

Results

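The Obox genes are a family of homeobox genes of the mouse that are transcribed in oocytes, and they are described here in oocytes with and without mitofusin 1 (Mfn1), a protein of the outer mitochondrial membrane needed for mitochondrial fusion. The family members were chosen by gene symbol, as Obox1, Obox2, Obox3, Obox5, Obox6, Obox7 and Obox8. Of these 7 genes, 6 had a row among the 22877 rows of the deposited expression table, and Obox8 had none. Secondary follicle-enclosed oocytes, that is growing oocytes freed from follicles that have no fluid cavity, were taken from 8-week-old C57BL/6J female mice. Mfn1-/- oocytes came from mice with a floxed Mfn1 allele crossed to a ZP3-Cre transgene, whose promoter is active in the growing oocyte, so that the deletion was restricted to the oocyte. WT mice were the controls. The labels give 4 WT and 3 Mfn1-/- libraries, each made from 5 pooled oocytes by Smart-Seq2, a method that amplifies full-length cDNA from few cells.

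Homeobox genes encode transcription factors that bind DNA through a homeodomain, a short fold of helices. Transcripts of Obox1, Obox2, Obox5 and Obox7 are known as maternal ones, stored in the oocyte, whereas Obox3 is known for transcription after fertilization. The family has been linked to the activation of the embryonic genome, when the embryo starts to transcribe its own genes. The question put to the table was which family members these growing oocytes held and whether their levels differed between Mfn1-/- and WT oocytes.

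The members lie in 1 cluster. In GRCm38 with the GENCODE M21 annotation it runs over chr7:14331436-15839678, which is 1508 kb, and GENCODE lists 55 genes with an Obox symbol in the genome, 48 of them not members. On the plus strand lie Obox7 (chr7:14659496-14665996), Obox2 (chr7:15388721-15398545), Obox1 (chr7:15388948-15556866) and Obox5 (chr7:15750131-15759800). On the minus strand lie Obox8 (chr7:14331436-14333557), Obox3 (chr7:15479825-15639902) and Obox6 (chr7:15833241-15839678). The annotated span of Obox1 begins inside that of Obox2 and covers it nearly in full, and the exons of these genes share 59 bases.

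The homeobox, the stretch of 180 coding bases for the homeodomain, is printed for the 4 members with high transcript levels and for Obox3, which was near the lowest value of the table, since these sequences are close to one another while the levels were not. Sequences are the C57BL/6J reference of the GENCODE M21 transcripts, 5′ to 3′ on the coding strand. Capitals in Obox2, Obox3, Obox5 and Obox7 mark bases that differ from Obox1, and the capital in Obox1 marks the base, the 69th of its homeobox, that has no counterpart in Obox2.
Obox1: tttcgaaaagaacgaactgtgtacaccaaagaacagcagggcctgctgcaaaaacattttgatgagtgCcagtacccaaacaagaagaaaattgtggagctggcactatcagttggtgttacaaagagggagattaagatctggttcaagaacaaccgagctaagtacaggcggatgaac
Obox2: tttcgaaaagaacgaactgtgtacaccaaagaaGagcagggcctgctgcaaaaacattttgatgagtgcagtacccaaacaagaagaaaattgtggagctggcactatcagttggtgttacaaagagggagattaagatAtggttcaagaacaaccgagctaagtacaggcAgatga
Obox5: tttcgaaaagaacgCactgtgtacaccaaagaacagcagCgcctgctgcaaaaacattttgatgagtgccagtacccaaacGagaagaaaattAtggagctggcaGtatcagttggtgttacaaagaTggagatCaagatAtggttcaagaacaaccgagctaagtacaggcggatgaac
Obox7: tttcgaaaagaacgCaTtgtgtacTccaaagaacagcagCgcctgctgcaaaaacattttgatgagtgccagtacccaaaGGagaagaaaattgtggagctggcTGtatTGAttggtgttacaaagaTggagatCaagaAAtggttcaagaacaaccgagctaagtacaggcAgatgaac
Obox3: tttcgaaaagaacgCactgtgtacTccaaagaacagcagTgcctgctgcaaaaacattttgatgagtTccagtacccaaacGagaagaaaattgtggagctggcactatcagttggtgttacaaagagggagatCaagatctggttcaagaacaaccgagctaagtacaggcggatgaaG

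In each of these genes the homeobox is split over neighbouring exons. In Obox1 it lies at chr7:15555567-15555704 and chr7:15556151-15556192, and in Obox2 at chr7:15397250-15397386 and chr7:15397834-15397870, the latter without the stop codon that ends the printed run. In Obox5 it lies at chr7:15757941-15758078 and chr7:15758539-15758580, in Obox7 at chr7:14664442-14664579 and chr7:14665268-14665309, and in Obox3, on the minus strand, at chr7:15626796-15626933 and chr7:15626284-15626325. Obox3 differed from Obox1 at 7 bases of the homeobox, Obox5 at 8 and Obox7 at 16. The homeoboxes of Obox6 and Obox8 were more distant from Obox1, with 52 and 79 differing bases.

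Obox2 stood apart in its coding sequence. Its run matched that of Obox1 apart from 3 substituted bases and the missing base, after which the annotated reading frame is another one and ends in the stop codon at the end of the printed run. The annotated Obox2 protein has 151 residues, against 204 for Obox1, 218 for Obox7, 291 for Obox5, 335 for Obox3, 347 for Obox6 and 217 for Obox8. A search of the translated coding sequences found a complete homeodomain in the 6 other members and none in Obox2.

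Obox2 had the highest level of the family in both genotypes and, on the deposited scale, stood near the top of all transcripts of the oocyte. Levels are the authors' means of normalized counts over the libraries of a genotype, on a scale that the sources used here do not state. No value of a single library was used and the authors' own test columns were set aside, so no SD, interval or test is given for any of them, and all differences here are descriptions of pairs of means. Obox2 had a mean of 460 normalized counts in WT oocytes and 364 in Mfn1-/- oocytes. Its WT mean ranked 31st and its Mfn1-/- mean 44th among the 22877 rows.

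The mean of Obox5, a member with a full homeodomain, was 162 normalized counts in WT and 116 in Mfn1-/- oocytes, with ranks of 140 and 223. Obox7, another member of the plus strand, had a mean of 53.9 in WT and 48.1 in Mfn1-/- oocytes and ranked 451st and 559th. Obox1 had a mean of 14.3 in WT and 11.4 in Mfn1-/- oocytes and ranked 1382nd and 1747th. For each of these 4 genes the Mfn1-/- mean was the lower one.

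The remaining members were near the lowest value in the table, which is 0.01. The mean of Obox6 was 0.0424 normalized counts in WT and 0.0262 in Mfn1-/- oocytes. The mean of Obox3, whose homeobox is close to that of Obox1, was 0.016 in WT and 0.0147 in Mfn1-/- oocytes. On the deposited scale the WT mean of Obox1, the member next above them in the order, was 337 times that of Obox6. So near the lowest value, the differences of Obox3 and Obox6 enter the counts and the family median given here but are not read one by one, since the depth per library is not known. The absence of a row for Obox8 gives no level for it.

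The order of the members was Obox2, Obox5, Obox7, Obox1, Obox6 and Obox3 in both genotypes. Whether the deposited scale accounts for transcript length is not stated, so levels were also divided by the length of each gene's longest GENCODE transcript. Per kb, the WT means were 315 normalized counts for Obox2, 88.5 for Obox5, 36.5 for Obox7 and 9.46 for Obox1, followed by 0.0315 for Obox6 and 0.007 for Obox3. In Mfn1-/- oocytes the means per kb were 249 for Obox2, 63.4 for Obox5, 32.6 for Obox7 and 7.54 for Obox1. The order was the same on both scales. The spread between libraries is not known, so it cannot be said which neighbours in this order differ beyond it.

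**Figure D1:**
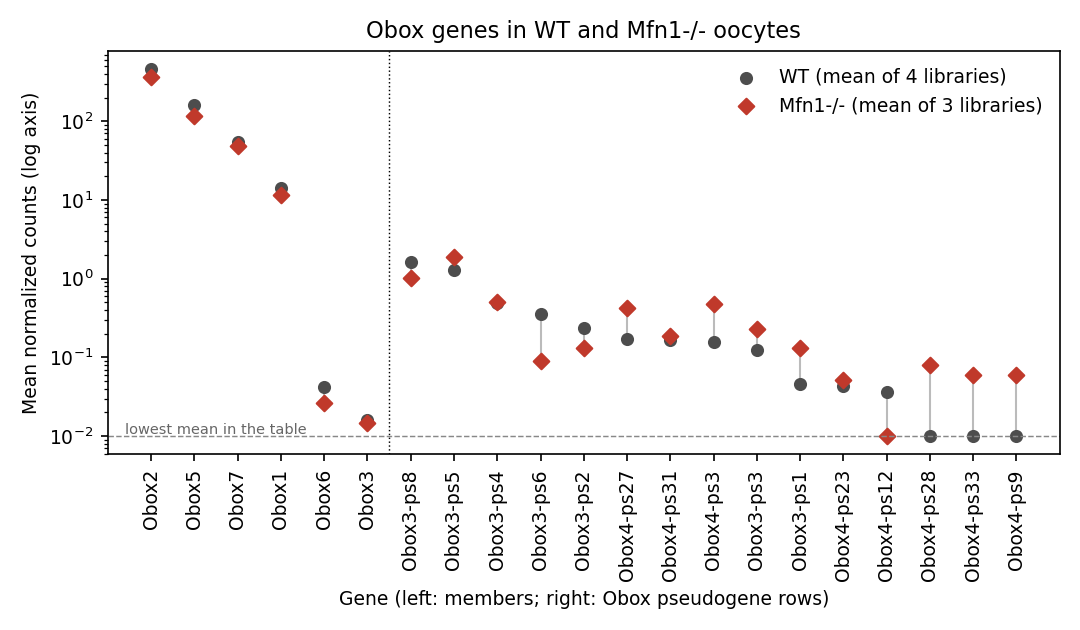
Mean normalized counts (y, log axis) of the 6 Obox members with a row and of the 15 Obox pseudogene rows (x) in WT oocytes (circles, mean of 4 libraries) and Mfn1-/- oocytes (diamonds, mean of 3 libraries), with the lowest mean of the table, 0.01, as a dashed line. Obox2, Obox5, Obox7 and Obox1 lie above 10 in both genotypes, Obox6 and Obox3 lie below 0.1, and all pseudogene rows lie below 2.

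In Mfn1-/- oocytes the 4 abundant members had lower means than in WT, by less than 2-fold each. The ratio of the Mfn1-/- to the WT mean was 0.716 for Obox5, 0.791 for Obox2, 0.797 for Obox1 and 0.892 for Obox7. With a pseudocount of 0.1 added to both means, the log2 differences, Mfn1-/- minus WT, were -0.48 for Obox5, -0.34 for Obox2, -0.32 for Obox1 and -0.16 for Obox7. Because each library was made from pooled oocytes, fewer oocytes holding a transcript and less transcript per oocyte cannot be told apart. The paper reports that Mfn1-/- ovaries had more secondary follicles with the fewest granulosa cell layers and few with the most. The growth stage of the sequenced oocytes is not labelled, so genotype and growth stage cannot be told apart here either.

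None of the 6 members passed a 2-fold difference in either direction, where 4.87% of all rows were over 2-fold higher and 2.75% over 2-fold lower in Mfn1-/- oocytes. All 6 had a lower Mfn1-/- mean, as had 42.9% of all rows, with Obox3 and Obox6 counted although both are near the lowest value. Among the 1849 rows with a mean over the 7 libraries of at least 10, 28.1% had a lower Mfn1-/- mean, and so had 4 of 4 Obox members at that level. These 4 genes share sequence and a cluster, and are therefore not 4 independent observations.

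The table as a whole was shifted the other way. The deposited means summed to 142576 in Mfn1-/- and 130160 in WT oocytes, and the median log2 difference was 0.16 over the 6226 rows with a mean of at least 1 and 0.19 over the 1849 rows with a mean of at least 10. With the former median subtracted, the log2 differences were -0.64 for Obox5, -0.50 for Obox2, -0.48 for Obox1 and -0.32 for Obox7. Among the 1849 rows, 6% had a lower log2 difference than Obox5, 9.19% a lower one than Obox2, 9.57% a lower one than Obox1 and 16.6% a lower one than Obox7. The 4 members thus lay in the lower part of the range of these 1849 rows, without being at its end. The rows were not matched to the level of each member.

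**Figure D2:**
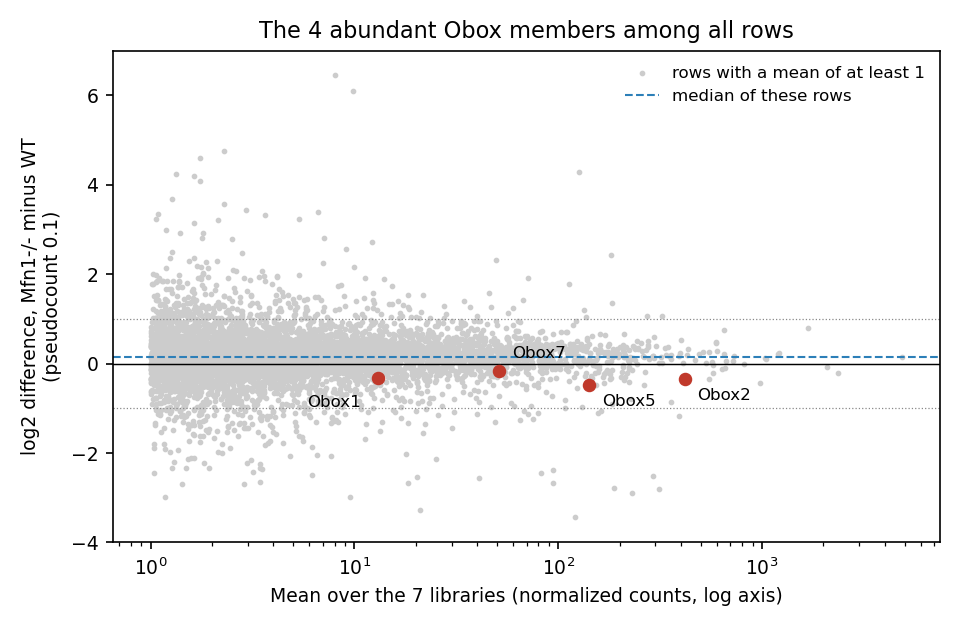
Log2 difference between Mfn1-/- and WT means (y, pseudocount 0.1) against the mean over the 7 libraries (x, normalized counts, log axis) for the 6226 rows with a mean of at least 1 (grey), with the median of these rows at 0.16 as a dashed line and 2-fold differences as dotted lines. Obox5, Obox2, Obox1 and Obox7 (red) lie below the median and above the lower dotted line, at -0.48, -0.34, -0.32 and -0.16.

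Summed over the members, Obox transcripts had 690 normalized counts in WT and 540 in Mfn1-/- oocytes, a log2 difference of -0.36. This sum was 0.53% of the total of all rows in WT and 0.378% in Mfn1-/- oocytes. The members' shares of the sum, on the deposited scale, differed by at most a few percentage points between the genotypes. Obox2 made up 66.6% of it in WT and 67.5% in Mfn1-/- oocytes, Obox5 23.5% and 21.5%, Obox7 7.81% and 8.91%, and Obox1 2.07% and 2.11%. The ratio of Obox2 to Obox1 was 32.2 in WT and 31.9 in Mfn1-/- oocytes, and that of Obox5 to Obox7 was 3.01 and 2.41.

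Reads can be divided between Obox genes in ways that the table does not show. The transcripts of Obox1 and Obox2 held identical stretches: of the 1807 different 75-base words in Obox1 transcripts, the length of 1 read, 47.2% also occurred in Obox2, and of the 1622 words in Obox2 transcripts 52.6% also occurred in Obox1. A read from such a stretch fits both genes, so the division of their sum into Obox1 and Obox2 is uncertain. As 1 unit, without regard to the division, Obox1 and Obox2 had 474 normalized counts in WT and 375 in Mfn1-/- oocytes, a log2 difference of -0.34. Obox5 and Obox7 were better separated, with 94% and 93.5% of their words found in no other Obox gene. Without Obox1 and Obox2, the sum of the other members had a log2 difference of -0.40. For Obox3, 12.3% of its words also occurred in Obox pseudogenes.

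**Figure D3:**
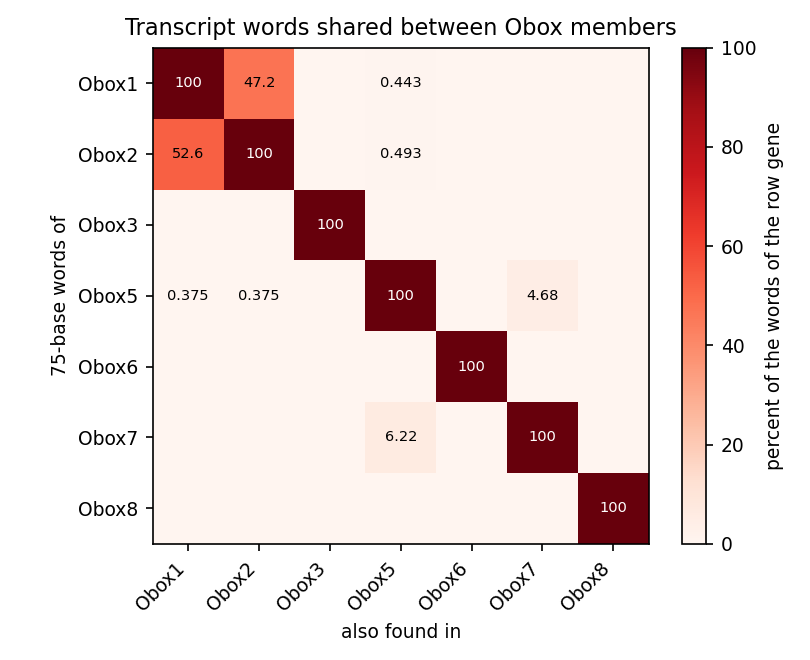
Percent of the different 75-base words in the transcripts of each Obox member (y) that also occur in the transcripts of each other member (x), from white for 0 to dark red for 100%. Obox1 and Obox2 share 47.2% and 52.6% of their words with each other, Obox7 shares 6.22% with Obox5, and Obox3, Obox6 and Obox8 share none with another member.

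The Obox pseudogenes were at low levels and did not all go in the direction of the members. Of the 48 other Obox genes, 15 had a row, 7 named as Obox3 and 8 as Obox4 pseudogenes. Their means summed to 4.81 normalized counts in WT and 5.37 in Mfn1-/- oocytes. The highest were Obox3-ps8, with 1.65 in WT and 1.02 in Mfn1-/- oocytes, and Obox3-ps5, with 1.3 and 1.9. Of the 15 rows, 11 had a higher and 4 a lower Mfn1-/- mean. Past 2-fold were Obox4-ps3, higher with 0.155 in WT and 0.481 in Mfn1-/- oocytes, and Obox3-ps6, lower with 0.36 and 0.0907.

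Of the 31 other genes annotated within the cluster, 7 had a row, 4 with a lower and 3 with a higher Mfn1-/- mean. The highest was the pseudogene Mrip-ps, chosen after its values were seen, with 7.9 normalized counts in WT and 4.83 in Mfn1-/- oocytes. The others had means of at most 0.31 in either genotype, several of them near the lowest value. The split into lower and higher is therefore not read as a direction of the neighbours.

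RefSeq start regions of 4 members shared a run of bases. RefSeq promoter windows of GRCm38.p6, from 250 bases before to 50 bases after the start, were given for Obox7, Obox2, Obox1, Obox3 and Obox5. The letters TATATAAG, a form of the TATA box at which the transcription machinery can assemble, were found on either strand in 4 of these 5 windows and in 1.01% of all 32851 windows. The 4 windows hold near-identical stretches of paralogs in the same cluster, so they are not independent observations. This motif was not among the planned comparisons and lies inside the run that these windows share, so the contrast with all windows is not read as an enrichment. The motif began 5 bases before the RefSeq start of Obox7, 19 before that of Obox1, 30 before that of Obox3 and 31 before that of Obox5. The GENCODE spans of these 4 genes begin further upstream and hold the motif inside them, so its place before the start depends on the annotation. Whether it acts as a TATA box was not tested. The surrounding 30 bases are shown with the motif in capitals, on the strand of the gene, at chr7:14659692-14659721 for Obox7, chr7:15547227-15547256 for Obox1, chr7:15750328-15750357 for Obox5 and chr7:15639789-15639818, minus strand, for Obox3.
Obox7, Obox1 and Obox5: gtttgcagagaTATATAAGggcaggtcttc
Obox3: gtttggagagaTATATAAGggcaggtcttc

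The window of Obox2 did not hold these letters. Each window covers only the bases around the RefSeq start of its gene, and a link of the motif to transcript level was not tested. TAATTG, letters bound by the oocyte homeodomain factor Nobox, were in 0 of the 5 windows and in 8% of all windows. CANNTG, the E-box bound by basic helix-loop-helix factors such as Figla, was in 4 of the 5 windows and in 72.3% of all windows.

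Other transcription factors of the oocyte did not go one way. Of 30 other homeobox genes listed, 20 had a row, of which 13 had a higher and 7 a lower Mfn1-/- mean, with a median log2 difference of 0.16 against 0.04 over all rows and -0.25 over the 6 Obox members. Over the 4 abundant Obox members the median was -0.33. Most of the 20 rows were of low level. Only 2 of them had a mean over the 7 libraries of at least 10, and 1 of these had a lower Mfn1-/- mean, against 28.1% of all rows at that level. The highest of the other homeobox genes in WT was Nobox, a gene needed for follicle growth, with 94.9 normalized counts in WT and 124 in Mfn1-/- oocytes. Sebox, an oocyte homeobox gene with maternal transcripts, had 86.3 in WT and 35.9 in Mfn1-/- oocytes, a log2 difference of -1.26, and was the single listed gene past 2-fold. Pou5f1, a pluripotency factor, had 8.96 and 10.5.

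Of 16 oocyte transcription factors without a homeobox and related regulators, all had a row, 7 with a higher and 9 with a lower Mfn1-/- mean, at a median log2 difference of -0.09. Zar1, a maternal RNA-binding factor, had 231 normalized counts in WT and 200 in Mfn1-/- oocytes. Its paralog Zar1l had 37.7 and 28.2, and Zfp57, which keeps imprints, had 72.1 and 66.8. 1 gene of this list was over 2-fold higher and 0 were over 2-fold lower. Of the 4 genes of this list with a mean over the 7 libraries of at least 10, 3 had a lower Mfn1-/- mean, as the abundant Obox members had, against 28.1% of all rows at that level.

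Of 27 transcripts known from early cleavage embryos, 23 had a row and 18 of these had a higher Mfn1-/- mean, with a median log2 difference of 0.46. Past 2-fold, 10 of the 23 were higher, against 4.87% of all rows, and 0 were lower. Nearly all of the 10 are Zscan4 and Usp17-like paralogs of low WT mean, which are not independent observations. The list was chosen with earlier results of these data known, so this share is not read as an enrichment. The 2 listed genes with the highest WT mean were lower in Mfn1-/- oocytes, as the Obox members were. These were Tcstv1, with 113 normalized counts in WT and 68 in Mfn1-/- oocytes, and Tcstv3, with 50.7 and 27.9. Klf17, a Krüppel-like factor, had 16.5 and 18.2. Of the 4 listed transcripts with a mean over the 7 libraries of at least 10, 2 had a lower Mfn1-/- mean, against 28.1% of all rows at that level.

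**Figure D4:**
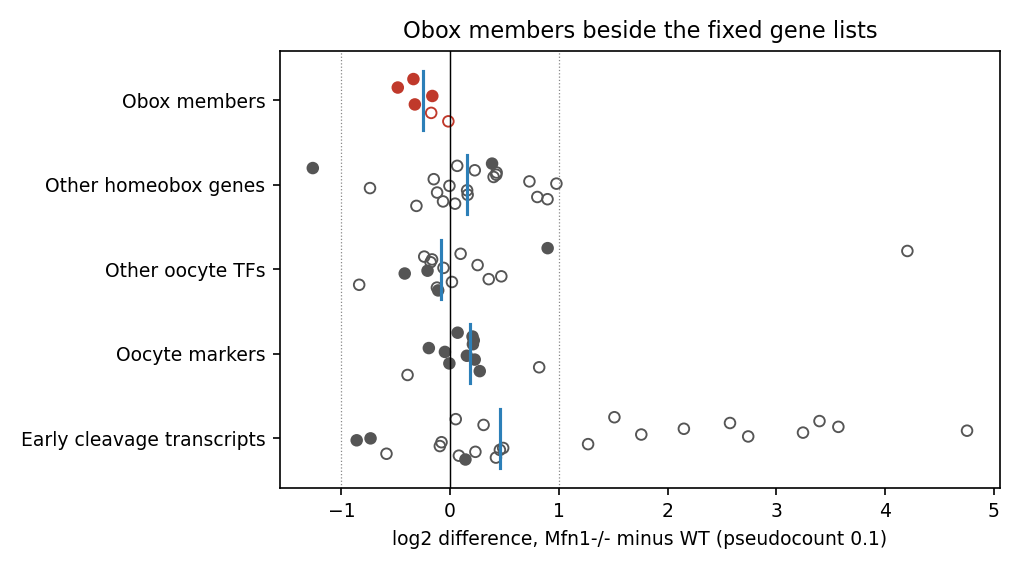
Log2 differences between Mfn1-/- and WT means (x, pseudocount 0.1) of the 6 Obox members (red) and of the genes of 4 lists (grey), filled where the WT mean was at least 10 normalized counts, with the median of each set as a blue line and 2-fold differences as dotted lines. The Obox median is -0.25, the other homeobox genes have a median of 0.16, the other oocyte transcription factors (TFs) -0.09, the oocyte markers 0.18 and the early cleavage transcripts 0.46.

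The rows whose pair of means lay nearest to that of Obox2 on the log2 scale, over the 2 genotype means, were Omt2a (406 normalized counts in WT and 413 in Mfn1-/- oocytes, distance 0.256), Rps13-ps2 (369 and 418, distance 0.375) and Tubb4b (404 and 463, distance 0.394). Each had the higher mean in Mfn1-/- oocytes, unlike Obox2.

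The labels were checked on the deleted gene and on cell markers. Mfn1 had 0.616 normalized counts in WT and 0.0577 in Mfn1-/- oocytes. All 12 oocyte markers had a row, 8 higher and 4 lower in Mfn1-/- oocytes, led by the maternal complex gene Ooep (1120 in WT and 1310 in Mfn1-/- oocytes), Dppa3 (816 and 812) and the zona pellucida gene Zp3 (609 and 708). The summed means of the oocyte markers were 3601 in WT and 3977 in Mfn1-/- oocytes, whereas the Obox sum was lower in Mfn1-/- oocytes. The sum of all rows was also higher in Mfn1-/- oocytes, at 1.1 times that of WT. The higher marker sum is therefore not read as a trait of the markers. Of the 10 oocyte markers with a mean over the 7 libraries of at least 10, 3 had a lower Mfn1-/- mean, against 28.1% of all rows at that level. Of the 13 granulosa markers with a row, 4 were higher and 9 lower in Mfn1-/- oocytes, and they summed to 1.8 in WT and 2.48 in Mfn1-/- oocytes. The higher sum came with Inha, an inhibin subunit (0.954 and 1.87), while the next in WT, Cyp19a1 (0.193 and 0.0846) and Nr5a2 (0.171 and 0.0974), had lower Mfn1-/- means, and the defining markers Foxl2, Amh and Fshr were near the lowest value. The 5 theca markers with a row, 4 higher and 1 lower, summed to 0.436 and 0.585, and the 3 stroma and vessel markers, all lower, to 0.248 and 0.21. The 3 blood cell markers with a row, 1 higher and 2 lower, summed to 0.772 and 7.62, nearly all of it Cd68, a lysosomal protein of macrophages, with 0.672 in WT and 7.58 in Mfn1-/- oocytes. Hba-a2 (0.0793 and 0.0285) and Lyz2 (0.0203 and 0.01) were lower in Mfn1-/- oocytes and near the lowest value. The listed markers Ptprc and Adgre1 had no row. The part of these cells in the Obox levels was not tested.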

How the data were processed

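Poly(A) RNA of 5 pooled oocytes per library was amplified by Smart-Seq2 and sequenced as 75 bp paired reads. Per the study's methods and the submitters' processing notes, the authors trimmed reads with Cutadapt, aligned them to GRCm38/mm10 with STAR, counted genes and compared genotypes with a DESeq package. The counting tool, its treatment of reads that fit several genes and its use of strand are not given in the sources used here. In the table the authors deposited, the signal is the mean of normalized counts per genotype, with the sum over libraries beside it. Adding the WT mean weighted by 4 and the Mfn1-/- mean weighted by 3 gave that sum, to within 1%, in 100% of rows, although the study's design text gives a smaller WT group than the 4 labelled libraries. The table also holds the authors' p-values, FDR values, ratios and fold changes, which were not used. Depth per library is not given in the sources used here. The means alone allow no test, so none was made here.

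Log2 differences are log2((Mfn1-/- mean + 0.1)/(WT mean + 0.1)), which understates differences of low rows. A difference past 2-fold was counted. The calculation was tested on simulated data. Sequence words of 75 bases, coding sequences, positions and homeoboxes came from GENCODE M21 (GRCm38), and start regions from RefSeq windows (GRCm38.p6), with Python and Biopython. Symbols of all 7 members matched GENCODE, and 5 had a RefSeq window. Members and gene lists were chosen with earlier results of these data known. Named genes were all members, Mfn1, other rows with an Obox symbol, the 3 genes of highest WT mean in each list, and the 3 rows nearest to Obox2. The defining markers of granulosa cells, the blood cell markers said to have no row and genes said to be chosen after their values were seen are exceptions. Theca, stroma and vessel markers are given without gene names. Alternatives were other pseudocounts, scalings, filters and fold limits, and sums without Obox2 or without Obox1 and Obox2.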

Additional observations from a re-analysis of the deposited data

How the results depend on the processing

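No member passed 2-fold under any alternative run. Another pseudocount cannot turn a direction and both rescalings lower every Mfn1-/- value, so the members' shared direction could not have changed under them. With the pseudocount of 0.1 none passed 1.5-fold on the deposited scale, although the plain ratio of Obox6 was 0.618, and Obox5 passed it at -0.61 with the columns rescaled and at -0.64 with the median subtracted. The log2 difference of the summed members was -0.49 with both genotype columns rescaled to the same sum and -0.51 with the median of rows with a mean of at least 1 subtracted. It was -0.39 without Obox2 and -0.40 without Obox1 and Obox2. The share of all rows past 2-fold, 7.61%, depended on how low rows were treated: it was 17.1% at a pseudocount of 0.01, 1.39% where it was 1, 11.5% over rows with a mean of at least 0.1, and 19.3% past 1.5-fold. Of the members, Obox6 depended most on the pseudocount, with a log2 difference of -0.53 at 0.01 and -0.02 at 1. No paired analysis was possible because the table gives 1 mean per genotype, and for the same reason leaving out single libraries was not run. Without values of single libraries, no Obox difference was compared here with the spread between libraries.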

Other observations

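Some genes of the lists besides the Obox members are given for their differences, chosen after their values were seen. In Mfn1-/- oocytes Zscan4c, a cleavage-stage zinc finger gene, had 13.8 normalized counts, against 1.22 in WT, and its paralogs Zscan4d and Zscan4f had 17.4 against 2.84 and 4.9 against 0.321. Usp17lb, of the Usp17-like deubiquitinases, had 5.24 against 0.098, the largest log2 difference among the listed genes at 4.75. Sohlh1, a transcription factor of early oocytes, had 3.68 in Mfn1-/- and 0.105 in WT oocytes. Of the listed genes, Sebox was the one over 2-fold lower. The spread between libraries behind these means was not measured here.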
